A study of Mus musculus with 30 samples.

Results

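The Myc, Max and Mxd network is a set of transcription factors that share one DNA site and one obligate partner. Myc, Mycn and Mycl are activators, and each binds DNA as a dimer with Max. Mxd1, Mxi1, Mxd3, Mxd4 and Mnt compete for Max and, at the same site, recruit Sin3 and histone deacetylase complexes that repress transcription. In embryonic stem (ES) cells, Myc and Mycn are known for driving ribosome production, nucleotide synthesis and cell growth, and they can replace each other in large part. The 9 genes were chosen by name as this network, and all 9 were found among the 52630 genes of one count table and among the 55487 genes of the other.

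All 30 RNA-seq libraries came from E14tg2a, a single line of mouse ES cells, so no result is replicated across lines. In the time course, cells in Serum/LIF labelled 0 h were compared with cells moved to Enhanced Metabolic Media (EMM) for 3, 9 or 24 h, with 3 libraries for each. EMM is the Serum/LIF medium with D-galactose in place of glucose and pyruvate. In the second experiment, cells were kept for 10 or 20 passages (P10, P20) in Serum/LIF (SL), EMM or 2i/LIF (2iL), a medium with inhibitors of GSK3 and MEK, again with 3 libraries for each. LIF was present in all 3 media. Serum/LIF and EMM are DMEM with fetal bovine serum. For 2i/LIF the study's methods give another base medium and list no serum. Comparisons with 2i/LIF thus differ in more than the inhibitors, and these parts cannot be told apart. The protocol text of the time course also mentions 24 h in Serum/LIF, and which time the control cells had is not resolved by the labels. The time course has a single Serum/LIF group and none matched to each EMM time. Effects of EMM, of the change of medium and of time in culture cannot be told apart there.

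Time-course libraries held 24074132 to 35301962 counts and passage libraries 6944918 to 27912959. Values below are normalized counts, which are counts scaled to the library size of their own experiment, and they are never compared between the experiments. A gene was called changed at an adjusted p below 0.01 (edgeR quasi-likelihood test, Benjamini-Hochberg over all genes tested). All 9 of 9 pluripotency markers, such as Pou5f1 and Nanog, were above 3 counts in every group. In bulk RNA, fewer cells of a type and less RNA per cell cannot be told apart.

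The network's shared site is the E-box CACGTG. Of the 9 genes, 8 had a promoter in RefSeq's GRCm38.p6 set, with 10 promoters in all, each from 250 bases before to 50 after a start. Myc was the gene without an entry, so its promoter was not searched. On a search of these letters, which read the same on both strands, CACGTG was present in the promoters of Max, Mxd4 and Mnt, as against 7.15% of all 32851 promoters. The variant CACGCG, searched on both strands, was in the promoter of Mycl and in 9.27% of all promoters. A match is a description of the letters and not evidence of binding. The stretches of these 3 promoters are shown because they carry the E-box of the network itself, and the capitals mark CACGTG.
Mnt, GRCm38.p6 chr11:74830674-74830919, plus strand: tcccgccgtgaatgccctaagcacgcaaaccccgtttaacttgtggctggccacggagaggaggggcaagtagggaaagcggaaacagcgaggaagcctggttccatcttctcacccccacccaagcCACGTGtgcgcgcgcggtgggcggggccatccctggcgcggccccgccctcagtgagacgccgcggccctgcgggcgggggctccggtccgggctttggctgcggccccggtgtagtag
Mxd4, GRCm38.p6 chr5:34187721-34187960, minus strand: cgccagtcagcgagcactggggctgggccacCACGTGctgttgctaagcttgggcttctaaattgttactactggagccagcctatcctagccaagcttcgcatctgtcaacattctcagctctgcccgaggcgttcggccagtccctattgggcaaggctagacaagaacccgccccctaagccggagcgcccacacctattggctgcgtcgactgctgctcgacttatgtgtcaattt
Max, GRCm38.p6 chr12:76962246-76962498, minus strand: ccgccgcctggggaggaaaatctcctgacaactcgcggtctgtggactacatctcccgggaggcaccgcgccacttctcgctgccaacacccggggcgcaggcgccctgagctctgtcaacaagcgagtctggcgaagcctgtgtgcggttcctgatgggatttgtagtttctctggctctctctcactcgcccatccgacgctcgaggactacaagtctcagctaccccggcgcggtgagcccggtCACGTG
Counted from the RefSeq start, the motif began at position -123 in Mnt, at -219 in Mxd4 and at -3 in Max. These 3 genes did not move together below. In EMM over the first day Mnt was higher, Mxd4 lower and Max not called.

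Within 3 h of EMM the activators fell and the repressors split. Of the 9 members, 8 were called at 3 h, 2 higher and 6 lower, where 35.4% of all genes tested were called (16.8% higher, 18.6% lower). At 9 h 7 were called (2 higher, 5 lower), against 39.1% of all genes (19.1% higher, 20.1% lower). At 24 h 7 were called (2 higher, 5 lower), against 44.6% of all genes (22.1% higher, 22.5% lower). The median log2 fold change of the members was -0.48 at 3 h, -0.30 at 9 h and -0.26 at 24 h, where the median of all genes lay between -0.01 and 0.00. The 3 comparisons share the same Serum/LIF libraries.

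Mycn, the most abundant activator per length in Serum/LIF, lies at GRCm38 chr12:12936093-12941914 on the minus strand. Its normalized counts were 8457, 8767 and 8392 in Serum/LIF and 4227, 4367 and 4084 at 3 h of EMM. They were 4379, 4268 and 4356 at 9 h and 3093, 2995 and 2898 at 24 h. No EMM library reached the Serum/LIF level, and the 24 h libraries lay below all others. The log2 fold change against Serum/LIF was -1.01 ± 0.04 (SE) at 3 h (adjusted p = 5.20e-14), -0.98 ± 0.04 at 9 h and -1.51 ± 0.04 at 24 h. Between 9 h and 24 h Mycn fell by a further 0.53 on the log2 scale (adjusted p = 1.05e-08), and it was the only one of 9 members called in that step, where 14.1% of all genes were called.

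Mycl, the least abundant of the activators per length in the time course, dropped early and stayed low. It had 489.2, 551.8 and 477.8 normalized counts in Serum/LIF, 194.5, 173.6 and 182.2 at 3 h, 188.9, 181.0 and 163.8 at 9 h, and 197.2, 154.0 and 141.8 at 24 h. The EMM times overlapped one another and lay well below Serum/LIF, with log2 fold changes of -1.47 ± 0.10, -1.51 ± 0.10 and -1.62 ± 0.10 at the 3 times.

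Myc (chr15:61985391-61990374, plus strand) changed less than its relatives. It had 3634, 3782 and 3550 normalized counts in Serum/LIF and 2512, 2756 and 2603 at 3 h. It then had 3051, 3031 and 2797 at 9 h and 3205, 3015 and 2921 at 24 h. The lowest values were those at 3 h, and the 9 h and 24 h libraries overlapped each other but not Serum/LIF. The log2 fold change was -0.48 ± 0.05 at 3 h, -0.30 ± 0.05 at 9 h and -0.26 ± 0.05 at 24 h (adjusted p = 8.64e-05). Myc was 0.17 ± 0.05 higher at 9 h than at 3 h (adjusted p = 6.35e-03), a step in which 3 of 9 members were called against 28.0% of all genes. That call was lost on leaving out replicate 1 or 3 of 3 h or replicate 1 or 2 of 9 h, with adjusted p between 0.0283 and 0.0489 in those 4 fits.

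**Figure D1:**
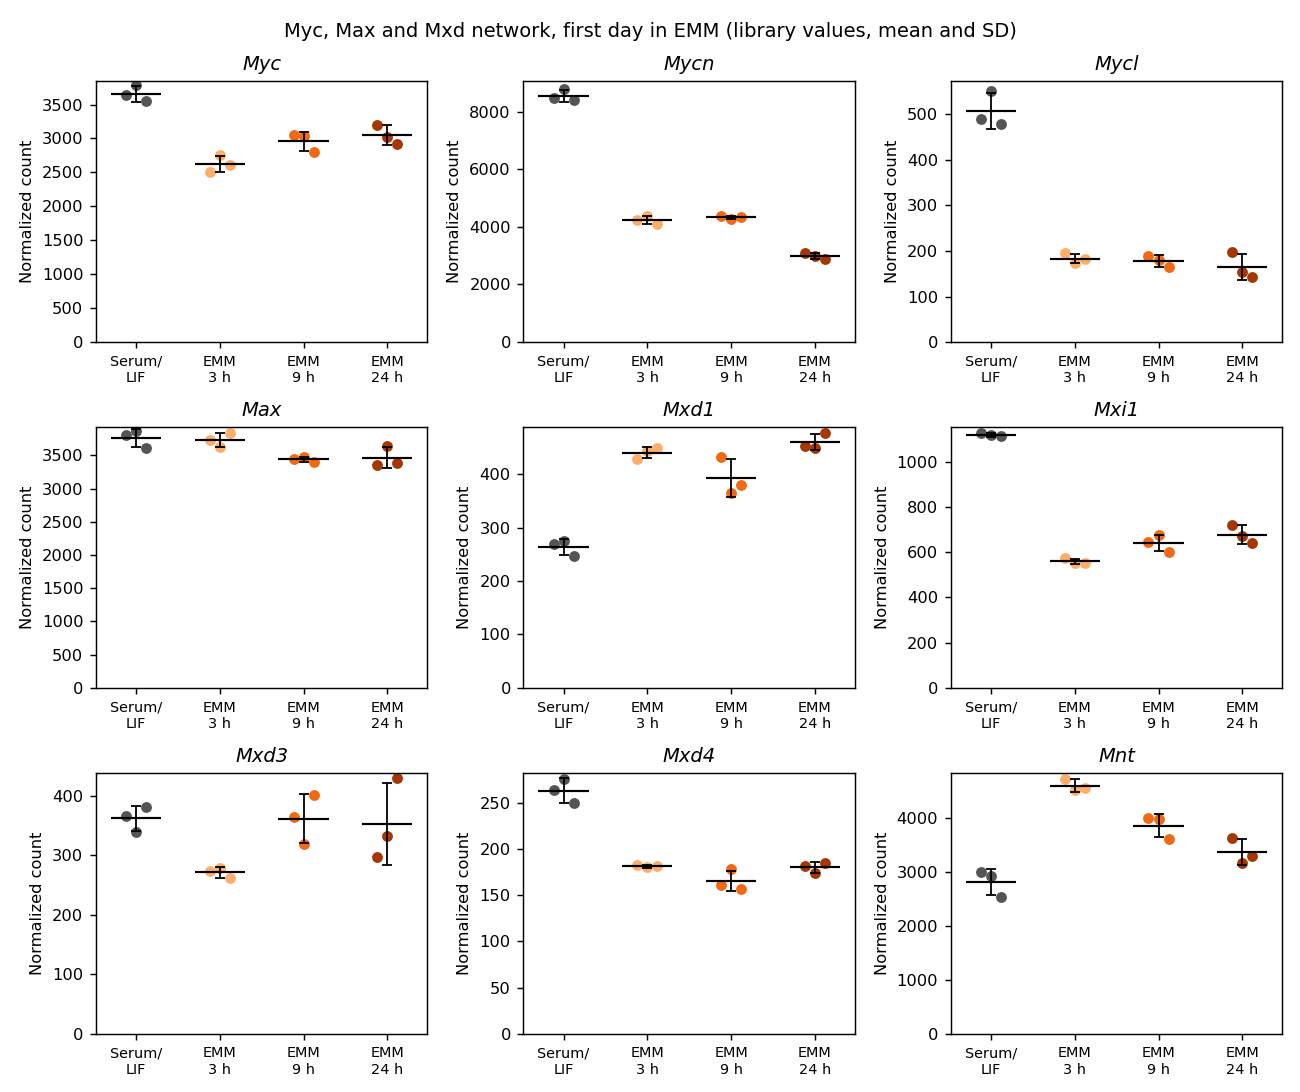
Normalized counts (y axis, from 0) of the 9 members in Serum/LIF and after 3, 9 and 24 h in EMM (x axis). Points are single libraries, black lines the means and bars the SD (n = 3). Mycn, Mycl and Mxi1 lie lower in every EMM library than in Serum/LIF, and Mxd1 and Mnt higher.

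Max, the common partner, was nearly level. Its means were 3761 ± 139 (SD, n = 3) in Serum/LIF, 3731 ± 109 at 3 h, 3441 ± 38 at 9 h and 3462 ± 158 at 24 h. The log2 fold changes at 9 and 24 h were -0.13 ± 0.04 and -0.12 ± 0.04, with adjusted p of 0.0151 and 0.0205, which miss the threshold. Both passed with scaling by library totals alone (adjusted p = 3.17e-03 and 7.72e-03). Max also passed at 9 h without Serum/LIF replicate 3 (adjusted p = 8.96e-03) and at 24 h without 24 h replicate 2 (adjusted p = 8.29e-03).

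Mxd1 and Mnt were the repressors that rose. Mxd1, known from cells that leave the cycle to differentiate, had 270.0, 275.4 and 246.2 normalized counts in Serum/LIF, 428.1, 443.9 and 448.9 at 3 h, 432.3, 364.9 and 379.4 at 9 h, and 453.4, 448.3 and 476.9 at 24 h. Every EMM library lay above every Serum/LIF library, and the log2 fold changes were 0.74 ± 0.08, 0.57 ± 0.08 and 0.80 ± 0.08. Mnt, expressed in most cells whether or not they divide, peaked early. It had 2989, 2915 and 2527 normalized counts in Serum/LIF, 4727, 4513 and 4550 at 3 h, 3994, 3971 and 3602 at 9 h, and 3628, 3167 and 3296 at 24 h. Its log2 fold change went from 0.71 ± 0.06 at 3 h to 0.46 ± 0.06 at 9 h and 0.26 ± 0.06 at 24 h (adjusted p = 2.24e-03), and the value at 9 h against 3 h was -0.25 ± 0.06 (adjusted p = 3.83e-03). That call was lost on leaving out any one of the 3 libraries of 3 h or replicate 3 of 9 h, with adjusted p from 0.0118 to 0.0197.

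Mxi1 (also called Mxd2) and Mxd4 fell. Mxi1 had 1125, 1117 and 1111 normalized counts in Serum/LIF, 573.2, 552.0 and 551.7 at 3 h, 643.0, 673.8 and 602.2 at 9 h, and 721.1, 669.3 and 639.3 at 24 h. Its 3 h libraries were the lowest, at a log2 fold change of -1.0002 ± 0.06, and the value at 24 h was -0.72 ± 0.06. Mxd4 had a mean of 263 ± 13 in Serum/LIF and 182 ± 2, 165 ± 11 and 180 ± 6 at the 3 times, with log2 fold changes of -0.54 ± 0.08, -0.67 ± 0.09 and -0.55 ± 0.09. Mxd3, which is linked to proliferating cells, was called at 3 h alone, at -0.42 ± 0.12 (adjusted p = 7.02e-03). That call was lost on leaving out any one of the 6 libraries, with adjusted p from 0.0121 to 0.0366, and the value at 24 h was -0.04 ± 0.11. Mxd3 was 0.41 ± 0.11 higher at 9 h than at 3 h (adjusted p = 8.23e-03), which was lost without any one of 5 of the 6 libraries, all but replicate 2 of 9 h (adjusted p from 0.0213 to 0.0386). Mxd3 shares 105 exon bases with Prelid1 on the other strand, Mxd4 shares 514 with Gm42846 and Mxi1 shares 194 with Gm10197. No source says whether counts were strand-specific, so reads from these bases cannot be told apart.

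Markers of other cell types differed in the same libraries. The summed level of 6 primitive endoderm markers, all 6 above 3 counts, was 408 to 443 normalized counts in Serum/LIF, 470 to 497 at 3 h, 533 to 595 at 9 h and 739 to 752 at 24 h. For 6 trophectoderm markers, of which Elf5 alone was not above 3 counts in any library, it was 2491 to 2731 in Serum/LIF, then 3667 to 4351, 4041 to 4283 and 4339 to 4481. The 6 mesoderm and neural markers summed to 2855 to 3374 in Serum/LIF, then 4029 to 4204, 3964 to 4374 and 3159 to 3375, so they lay above Serum/LIF at 3 and 9 h and overlapped it at 24 h. The 6 fibroblast markers summed to 1917 to 2015, then 1806 to 2110, 1743 to 1869 and 1345 to 1583. Their part in the changes of the network was not tested.

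At P10 the activators split, with Myc higher in EMM than in Serum/LIF and Mycn and Mycl far lower. Of the 9 members, 8 were called, 5 higher and 3 lower, where 37.4% of all genes tested were called (18.7% higher, 18.7% lower). At P20 4 of 9 were called, 2 higher and 2 lower, where 26.4% of all genes were called (13.7% higher, 12.8% lower). The effect of EMM differed between the passages for 4 of 9 members, where 15.0% of all genes were called for that difference. The median log2 fold change of the members was 0.29 at P10 and -0.03 at P20, and that of all genes 0.01 and 0.00.

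Mycn had 4109, 3728 and 3796 normalized counts in Serum/LIF at P10 and 797.2, 674.9 and 657.4 in EMM. At P20 it had 3090, 2788 and 2827 in Serum/LIF and 2591, 2577 and 2602 in EMM. The P10 EMM libraries were the lowest of all 18 and the P20 EMM libraries were close below Serum/LIF, without overlap in either passage. The log2 fold change was -2.44 ± 0.11 at P10 (adjusted p = 6.46e-13) and -0.16 ± 0.10 at P20 (adjusted p = 0.210). The difference of the 2 effects was itself called, at 2.28 ± 0.15 (adjusted p = 8.21e-10).

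Myc had 688.6, 521.8 and 616.6 normalized counts in Serum/LIF at P10 and 1302, 1082 and 1198 in EMM. At P20 it had 1003, 895.0 and 952.3 in Serum/LIF and 923.8, 916.5 and 948.1 in EMM. The groups were apart at P10 and overlapped at P20. The log2 fold change was 0.97 ± 0.12 at P10 (adjusted p = 1.64e-06) and -0.03 ± 0.12 at P20, and the difference between passages was -1.004 ± 0.17 (adjusted p = 2.00e-04). The control differed between passages too. In Serum/LIF, Myc was 0.64 ± 0.12 higher at P20 than at P10 (adjusted p = 1.43e-03). The change within Serum/LIF was not called without P10 replicate 2 (adjusted p = 0.0171).

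Mycl was lower in EMM at both passages. It had 452.3, 450.4 and 396.8 normalized counts in Serum/LIF against 115.7, 112.2 and 132.9 in EMM at P10, and 304.6, 282.1 and 264.0 against 108.8, 123.7 and 132.0 at P20. The log2 fold changes were -1.86 ± 0.13 and -1.22 ± 0.12. Their difference of 0.64 ± 0.17 passed narrowly (adjusted p = 9.89e-03) and was lost in 10 of the 12 fits that each leave out 1 library, all but those without P10 EMM replicate 3 or P20 EMM replicate 1, with adjusted p from 0.0110 to 0.0333.

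**Figure D2:**
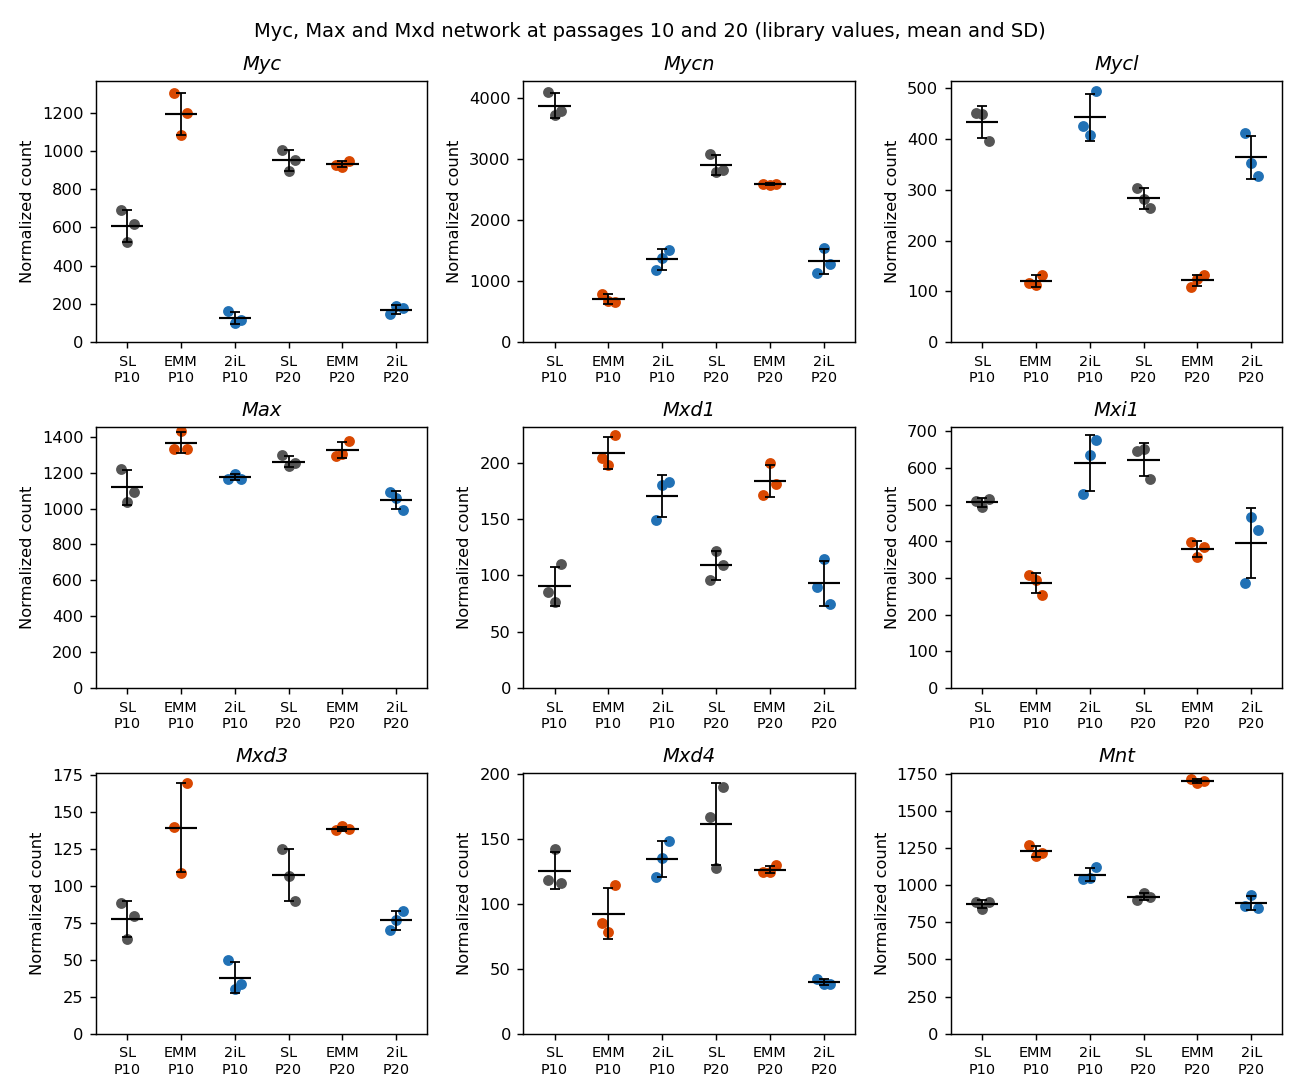
Normalized counts (y axis, from 0) of the 9 members at passages 10 and 20 in Serum/LIF (SL), EMM and 2i/LIF (2iL) on the x axis. Points are single libraries, black lines the means and bars the SD (n = 3). Myc is lowest in the 2i/LIF libraries at both passages, and Mycn is lowest in EMM at P10.

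Among the repressors in EMM, Mxd1 and Mnt were higher and Mxi1 lower at both passages. Mxd1 had 84.87, 76.39 and 109.9 normalized counts in Serum/LIF against 204.1, 197.9 and 224.5 in EMM at P10, and 95.59, 122.1 and 108.9 against 171.2, 199.8 and 181.3 at P20, with no overlap. The log2 fold changes were 1.21 ± 0.17 and 0.75 ± 0.16. Mnt had 887.3, 838.3 and 882.7 against 1267, 1194 and 1219 at P10 and 899.1, 945.7 and 919.7 against 1712, 1688 and 1701 at P20. Its log2 fold change was 0.50 ± 0.07 at P10 and 0.88 ± 0.07 at P20. The difference of 0.39 ± 0.10 between passages (adjusted p = 5.23e-03) was lost in 9 of the 12 fits that each leave out 1 library, all but those without P10 EMM replicate 1, P10 Serum/LIF replicate 2 or P20 Serum/LIF replicate 2, with adjusted p from 0.0123 to 0.0192. Mxd1 at P20 reached an adjusted p of 0.01002, just short of a call, without Serum/LIF replicate 1. Mxi1 changed by -0.81 ± 0.14 at P10 and -0.72 ± 0.13 at P20. Mxd3 was higher at P10 (0.83 ± 0.20, adjusted p = 1.38e-03, or 0.0125 without Serum/LIF replicate 2), and at P20 its value of 0.37 ± 0.18 was not called. Mxd4 was called at neither passage (-0.46 ± 0.18 and -0.35 ± 0.16). Max was 0.29 ± 0.07 higher in EMM at P10 (adjusted p = 2.56e-03), a call lost with scaling by library totals (0.19, adjusted p = 0.0367). It was also lost without EMM replicate 2 or Serum/LIF replicate 2 or 3 (adjusted p from 0.0108 to 0.0228), and the value at P20 was 0.07 ± 0.07.

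In 2i/LIF, Myc was the member furthest from Serum/LIF. It had 161.7, 100.2 and 115.7 normalized counts at P10 and 145.7, 188.4 and 176.3 at P20, all far below the Serum/LIF libraries given above. The log2 fold changes were -2.29 ± 0.14 (adjusted p = 2.71e-11) and -2.45 ± 0.14 (adjusted p = 6.89e-12). Of the 9 members, 5 were called at P10 (2 higher, 3 lower) and 5 at P20 (5 lower), where 52.0% (26.4% higher, 25.6% lower) and 44.1% (20.9% higher, 23.2% lower) of all genes were called. That share of the members is near the share of all genes. The members' median log2 fold change was 0.07 at P10 and -0.47 at P20, against 0.02 and -0.01 for all genes. The effect of 2i/LIF differed between the passages for 4 of 9 members, where 20.1% of all genes were called for that difference. The difference of Max was not called (-0.34 ± 0.10, adjusted p = 0.0151). It passed by DESeq2 (adjusted p = 8.37e-03) and with scaling by library totals (adjusted p = 4.20e-03). The EMM and 2i/LIF comparisons share their Serum/LIF libraries.

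Mycn was lower in 2i/LIF too, with 1177, 1383 and 1507 normalized counts at P10 and 1142, 1552 and 1286 at P20. The log2 fold changes were -1.51 ± 0.10 and -1.12 ± 0.10. Mycl was not lower: it had 425.4, 408.1 and 495.2 normalized counts at P10 and 411.2, 353.9 and 326.6 at P20, with log2 fold changes of 0.04 ± 0.11 and 0.35 ± 0.12 that were not called. Without P20 2i/LIF replicate 3 the P20 value passed (adjusted p = 9.04e-03).

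For 4 of the 5 repressors in 2i/LIF the effect differed between passages by the test of the difference, where 20.1% of all genes were called. Mxd4 had 118.6, 141.9 and 115.7 normalized counts in Serum/LIF and 120.9, 135.1 and 148.2 in 2i/LIF at P10, which overlap. At P20 it had 167.0, 127.9 and 190.2 in Serum/LIF and 42.29, 38.42 and 38.32 in 2i/LIF, which do not. The log2 fold change at P20 was -2.03 ± 0.19 (adjusted p = 1.38e-08), and the difference between passages was -2.14 ± 0.25 (adjusted p = 4.81e-06). Mxd1 had 149.1, 180.1 and 183.3 normalized counts in 2i/LIF at P10 and 89.28, 114.5 and 74.71 at P20. It was 0.93 ± 0.17 higher than in Serum/LIF at P10, its value at P20 was -0.22 ± 0.18, and the difference was -1.15 ± 0.25 (adjusted p = 1.47e-03). Mxd1 lies on chromosome 6, whose 746 tested genes had a median value of 0.33 on the log2 scale in 2i/LIF against Serum/LIF at P20. The 623 tested genes of chromosome 15, which carries Myc, had medians of -0.18 at P10 and -0.08 at P20, in the direction of the far larger change of Myc, and 0.19 and 0.11 for EMM against 2i/LIF. The part of such shifts in the results was not tested. Mxi1 changed by 0.28 ± 0.13 at P10, not called, and by -0.63 ± 0.13 at P20, with a difference of -0.91 ± 0.19 (adjusted p = 9.57e-04). Mxd3 was lower at P10 (-1.05 ± 0.22) and its value at P20 was -0.47 ± 0.20, not called, nor was the difference of 0.58 ± 0.29 (adjusted p = 0.133). Mnt was 0.30 ± 0.07 higher at P10, a call lost when all genes with a single count were kept (0.23, adjusted p = 0.0791) or the compared groups were fitted alone (0.0177), and its value at P20 was -0.06 ± 0.07. The difference of -0.37 ± 0.10 between passages (adjusted p = 6.74e-03) was lost in 9 of the 12 fits that each leave out 1 library, all but those without P10 2i/LIF replicate 1, P20 2i/LIF replicate 2 or P20 Serum/LIF replicate 1, with adjusted p from 0.010003 to 0.0226. Max, which pairs with all of them, was -0.27 ± 0.07 at P20 (adjusted p = 3.58e-03), a call lost without 2i/LIF replicate 3 or Serum/LIF replicate 1 (adjusted p = 0.0216 and 0.0170), with no filter on low counts (0.0281) and with the compared groups fitted alone (0.0179).

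**Figure D3:**
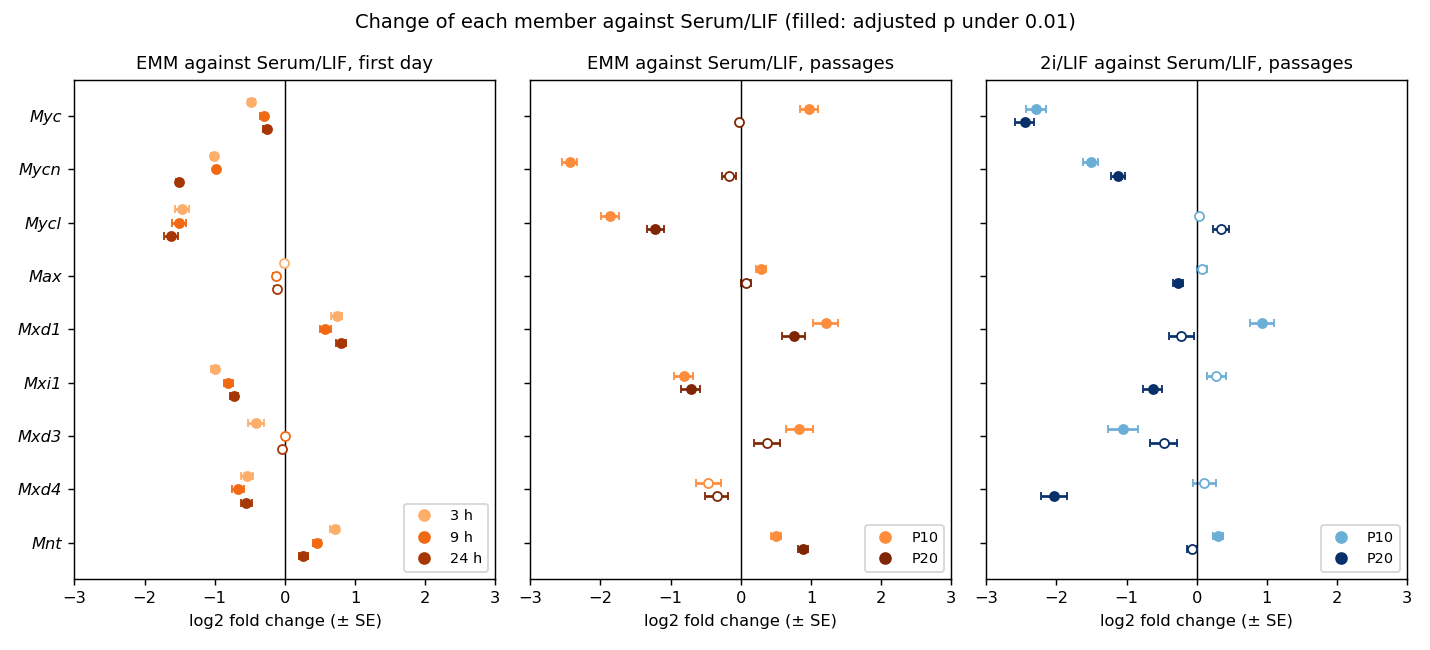
Log2 fold change against Serum/LIF (x axis) of each member (y axis) with its SE, in EMM over the first day, in EMM at passages 10 and 20, and in 2i/LIF at passages 10 and 20. Filled points passed an adjusted p of 0.01, and bars are left out for changes below 0.05 in size. Mycl is lower in all 5 EMM comparisons, and Mycn runs from -2.44 at P10 to -0.16 at P20.

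Set against 2i/LIF, EMM cells held more Myc at both passages, by 3.26 ± 0.14 on the log2 scale at P10 and 2.42 ± 0.14 at P20, and less Mycl (-1.90 ± 0.13 and -1.57 ± 0.12). Mycn was lower in EMM at P10 (-0.93 ± 0.11) and higher at P20 (0.96 ± 0.10). In all, 6 of 9 members were called at P10 and 8 of 9 at P20, where 44.9% and 48.7% of all genes were called. Mxd3 was higher in EMM at both passages (1.88 ± 0.21 and 0.84 ± 0.19). Mxd4 was lower at P10 (-0.57 ± 0.18, adjusted p = 9.20e-03), a call lost without EMM replicate 1 or 2 or 2i/LIF replicate 2 or 3 (adjusted p from 0.0211 to 0.0532), and higher at P20 (1.68 ± 0.19). These comparisons use the same EMM and 2i/LIF libraries as those against Serum/LIF.

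Between passages in one medium, 3 of 9 members were called in Serum/LIF (6.29% of all genes called), 2 in EMM (25.2%) and 5 in 2i/LIF (28.3%). In Serum/LIF these were Myc, given above, Mycn (-0.42 ± 0.10) and Mycl (-0.61 ± 0.11), and the Mycn call was lost on leaving out any one of the 6 libraries, with adjusted p from 0.0126 to 0.0459. In EMM Mycn was 1.86 ± 0.11 higher at P20 (adjusted p = 1.22e-10) and Mnt 0.47 ± 0.07 higher. Myc was -0.36 ± 0.12 in EMM (adjusted p = 0.0217), which passed by DESeq2 (6.50e-03) and with the compared groups fitted alone (1.24e-03). In 2i/LIF Mxd4 (-1.78 ± 0.19), Mxd1 (-0.87 ± 0.17), Mxi1 (-0.61 ± 0.13) and Mnt (-0.28 ± 0.07) were lower at P20 and Mxd3 (1.05 ± 0.22) was higher. The Mnt call was lost without P10 or P20 replicate 3 (adjusted p = 0.0190 and 0.0152). With the 2i/LIF libraries of both passages fitted alone, 1 of these 5 was called, Mxd4, and the others had adjusted p from 0.0147 (Mxd1) to 0.0750 (Mnt). Myc, at 0.48 ± 0.15 (adjusted p = 0.0158), passed without replicate 1 of either passage, the shallowest of the 2i/LIF libraries at each, and with the replicate number as a block (0.50, adjusted p = 8.48e-03).

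Fewer members passed when the log2 fold change also had to exceed 1 in size. At 3 h of EMM 3 of 9 did so (Mycn, Mycl and Mxi1), against 4.26% of all genes, at 9 h 1 (Mycl), against 5.58%, and at 24 h 2 (Mycn and Mycl), against 8.23%. In neither later step of the time course did a member reach that size, as against 1.79% of all genes from 3 to 9 h and 0.629% from 9 to 24 h. In EMM against Serum/LIF 3 of 9 did at P10 (Mycn, Mycl and Mxd1), against 17.2% of all genes, and 1 at P20 (Mycl), against 9.77%. In 2i/LIF 3 of 9 did at P10 (Myc, Mycn and Mxd3), against 26.4%, and 3 at P20 (Myc, Mycn and Mxd4), against 22.2%. Between EMM and 2i/LIF 4 of 9 did at P10 (Myc, Mycl, Mxi1 and Mxd3), against 22.1%, and 3 at P20 (Myc, Mycl and Mxd4), against 25.4%. Between passages no member did in Serum/LIF (1.87% of all genes), Mycn alone did in EMM (8.58%), and Mxd3 and Mxd4 did in 2i/LIF (10.1%). Of the differences between passages in the effect of a medium, those of Myc and Mycn in EMM (8.57% of all genes) and of Mxd1 and Mxd4 in 2i/LIF (9.27%) were of that size.

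The passage libraries in Serum/LIF also held far more RNA of fibroblast and trophectoderm markers than those in EMM or 2i/LIF. The 6 fibroblast markers (Col1a1, Col1a2, Col3a1, Thy1, Pdgfrb and Dcn) summed to 2274 to 2709 normalized counts at P10 and 3651 to 7227 at P20 in Serum/LIF, with all 6 above 3 counts. They summed to 328 to 386 and 193 to 230 in EMM, and to 87.1 to 109 and 106 to 122 in 2i/LIF. In EMM at P10 Dcn, Col3a1 and Col1a2 were at or below 3 counts, as were Dcn and Col3a1 in 2i/LIF at both passages. The 6 trophectoderm markers summed to 5328 to 6622 and 2916 to 3879 in Serum/LIF, 466 to 596 and 515 to 552 in EMM, and 837 to 1116 and 1805 to 1819 in 2i/LIF, with Elf5 at or below 3 counts in all EMM and 2i/LIF groups and Gata3 in 2i/LIF at P20. The 6 primitive endoderm markers summed to 172 to 226 and 226 to 315 in Serum/LIF, 109 to 125 and 224 to 345 in EMM, and 91.5 to 103 and 77.5 to 136 in 2i/LIF, with Sox7 at or below 3 counts in 2i/LIF at P10 and Sox17 at P20. The 6 mesoderm and neural markers summed to 1305 to 1940 and 1472 to 1565 in Serum/LIF, 1188 to 1393 and 1597 to 1730 in EMM, and 964 to 1195 and 1632 to 1734 in 2i/LIF, with Mesp1 at or below 3 counts in EMM and 2i/LIF and Pax6 in 2i/LIF. The fibroblast and trophectoderm sums did not overlap between Serum/LIF and either other medium at either passage. The primitive endoderm sums of Serum/LIF and EMM overlapped at P20, as did the mesoderm and neural sums at P10. The 9 pluripotency markers summed to 53959 to 59238 normalized counts in Serum/LIF, 77612 to 86212 in EMM and 67502 to 70125 in 2i/LIF at P10, and to 64370 to 68124, 58882 to 60436 and 75146 to 79974 at P20, so EMM lay above Serum/LIF at P10 and below it at P20 without overlap. EMM and 2i/LIF also differed from each other in the fibroblast and trophectoderm sums, and the part of these markers in the results was not tested.

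Levels of different genes were compared per length, as CPM (counts scaled to a common library total) per kb of merged exons. On that scale Mycn made up 63.8% ± 0.3 of the summed Myc family level in the time-course Serum/LIF libraries, Myc 33.1% ± 0.2 and Mycl 3.08% ± 0.16 (SD, n = 3). After 24 h in EMM, Myc made up 54.1% ± 0.3 and Mycn 43.9% ± 0.5. Meanwhile the summed level went from 137 ± 4 to 70.1 ± 3.0 CPM per kb, without overlap. The larger share of Myc at 24 h thus goes with a level of Myc that was itself lower than in Serum/LIF.

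At P10 the share of Myc was 14.8% ± 1.3 in Serum/LIF, 64.2% ± 1.2 in EMM and 8.28% ± 2.70 in 2i/LIF, and at P20 it was 26.9% ± 0.6, 29.5% ± 0.2 and 11.3% ± 0.7. Of the 10 groups, Myc exceeded Mycn on this scale in EMM at P10 and at 24 h of the time course. Mycl reached 19.3% ± 1.1 and 16.4% ± 3.4 in 2i/LIF, its largest shares. The summed Myc family level at P10 was 96.7 ± 5.9 CPM per kb in Serum/LIF, 43.9 ± 3.9 in EMM and 36.4 ± 3.3 in 2i/LIF. At P20 it was 83.3 ± 4.6, 74.2 ± 0.7 and 35.6 ± 4.2.

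Mnt made up most of the summed level of the 5 repressors in every group, from 53.8% ± 1.8 in Serum/LIF at P20 to 78.0% ± 0.4 at 3 h of EMM. The ratio of the 5 repressors to the 3 activators was 0.244 ± 0.011 in the time-course Serum/LIF libraries, and 0.556 ± 0.025, 0.472 ± 0.007 and 0.513 ± 0.026 at 3, 9 and 24 h of EMM. At P10 it was 0.214 ± 0.009 in Serum/LIF, 0.595 ± 0.034 in EMM and 0.666 ± 0.023 in 2i/LIF, and at P20 0.285 ± 0.016, 0.451 ± 0.004 and 0.539 ± 0.020. Within each experiment and passage, no library in EMM or 2i/LIF had a ratio as low as one in Serum/LIF. No p is given, since the genes summed were chosen with their changes known, and exon length merged over transcripts can misstate the levels of genes with long alternative exons.

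**Figure D4:**
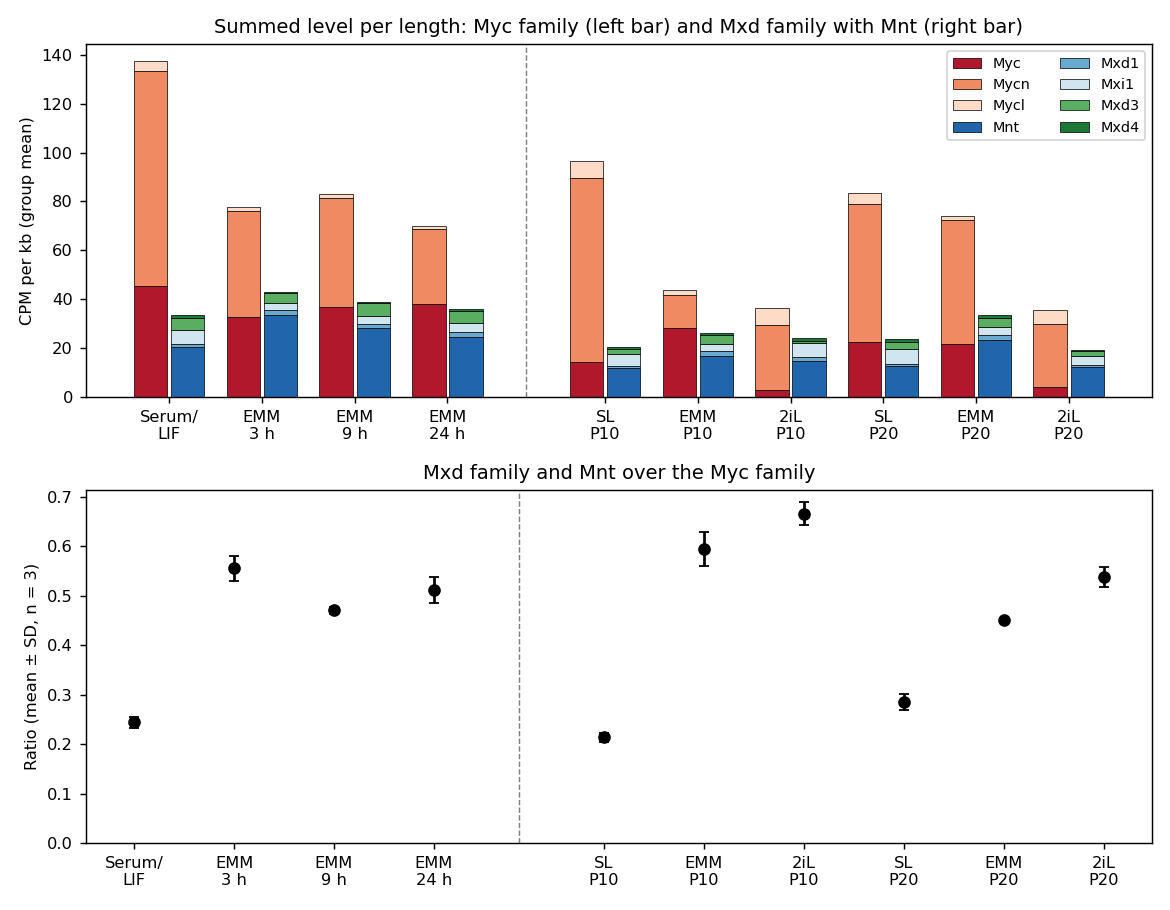
Upper panel, summed level in CPM per kb (y axis, from 0) of the Myc family (left bar) and of the Mxd family with Mnt (right bar) in each group, split by gene (group means, n = 3). Lower panel, the ratio of the right sum to the left (mean ± SD). The dashed line separates the experiments, and the ratio is lowest in the Serum/LIF group of each, from 0.214 at P10 to 0.285 at P20.

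Of the extended network, which covers genes of the same helix-loop-helix family that pair with Max or with its relative Mlx, Mlxipl had the largest changes in EMM against Serum/LIF. It encodes ChREBP, a sensor of glucose metabolites. Mlxipl averaged 288 normalized counts in Serum/LIF and 191, 122 and 136 at 3, 9 and 24 h of EMM, with log2 fold changes of -0.60 ± 0.09, -1.24 ± 0.09 and -1.08 ± 0.09. At P10 it averaged 126 in Serum/LIF and 31.0 in EMM (-2.03 ± 0.26), and at P20 141 and 72.3 (-0.96 ± 0.22). In 2i/LIF its values of -0.62 ± 0.22 at P10 and 0.52 ± 0.21 at P20 were not called by edgeR, nor by DESeq2 (adjusted p = 0.0137 and 0.0501). Mlxip, which encodes the related MondoA, was lower at 3 h (-0.44 ± 0.05) and 9 h (-0.29 ± 0.05) and, in 2i/LIF, at P20 (-0.71 ± 0.12). At P10 in 2i/LIF Mlxip was -0.34 ± 0.12, not called by edgeR but called by DESeq2 (adjusted p = 4.97e-03). Mga, a Max partner found in repressive complexes, was higher at 3 h (0.54 ± 0.10), in EMM at P20 (0.55 ± 0.14) and in 2i/LIF at P10 (0.90 ± 0.14). Mlx was called in 0 of the 16 comparisons by edgeR, with log2 fold changes between -0.38 and 0.40, 3 of them at an unadjusted p below 0.05, and 0 by DESeq2. Pvt1, a long noncoding RNA next to Myc, was lower at 3 h (-0.26 ± 0.07), 9 h (-0.63 ± 0.07) and 24 h (-0.43 ± 0.07), and it was not called in EMM at P10 (0.26 ± 0.18), where Myc was higher.

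Genes of the network's partners and its textbook targets were followed in lists. Each count below is to be read against all genes tested, of which 16.8% were higher and 18.6% lower at 3 h of EMM, 19.1% and 20.1% at 9 h, and 22.1% and 22.5% at 24 h. In EMM these shares were 18.7% and 18.7% at P10 and 13.7% and 12.8% at P20, and in 2i/LIF 26.4% and 25.6% at P10 and 20.9% and 23.2% at P20. Of 13 Myc cofactors, 2 were higher and 3 lower at 24 h of EMM, a share near the 44.6% of all genes, among them Ep400 (0.27 ± 0.07), an ATPase of the Tip60 acetyltransferase complex, and Ruvbl2 (-0.42 ± 0.06), a helicase of the same complex. In EMM at P10 7 of 13 were higher and 0 lower, led by Wdr5 (0.54 ± 0.07), while DESeq2 called 7 higher and 1 lower. At P20 0 of 13 were called by edgeR, with 7 at an unadjusted p below 0.05 and 1 called lower by DESeq2. In 2i/LIF the split was 7 higher to 2 lower at P10 and 7 to 1 at P20. Of 15 corepressor genes, 3 were higher and 5 lower at 24 h, with Sin3b at 0.42 ± 0.04 and Hdac1 at -0.35 ± 0.04. In EMM the split was 4 higher to 2 lower at P10 and 1 to 2 at P20, and in 2i/LIF 4 to 1 and 2 to 1. Of 16 genes of Myc protein turnover, 2 were higher and 8 lower at 24 h, led by Usp28 (-0.64 ± 0.04), a deubiquitinase that stabilises Myc. Usp28 went the other way in EMM at P10 (0.35 ± 0.09) and P20 (0.73 ± 0.09), where 1 and 1 of the 16 were higher and 2 and 3 lower. In 2i/LIF 2 were higher and 4 lower at either passage.

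Among target genes of the nucleolus and ribosome biogenesis, those called at 3 h were higher and most of those called later were lower. Of 30 tested, 12 were higher and 0 lower at 3 h, 1 was higher and 12 lower at 9 h, and 1 was higher and 15 lower at 24 h. Of all genes 35.4%, 39.1% and 44.6% were called at these times, and the list's medians were 0.14, 0.00 and -0.17. Genes lower at 24 h included Bop1 (-0.54 ± 0.04) and Nop16 (-0.49 ± 0.04), both needed to build the large ribosomal subunit, and Ubtf, the RNA polymerase I factor, was the one that was higher (0.25 ± 0.04). In EMM the split was 5 higher to 3 lower at P10 and 2 to 5 at P20. In 2i/LIF it was 3 to 15 at P10 (median -0.22) and 6 to 1 at P20 (median 0.08). DESeq2 gave 5 to 6 in EMM at P10 and 8 to 7 in 2i/LIF at P20, so neither of those balances held across tools.

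Of 20 genes of nucleotide, polyamine and one-carbon metabolism, 6 were higher and 3 lower at 3 h, 0 higher and 10 lower at 9 h and 0 higher and 17 lower at 24 h (median -0.30). The largest falls at 24 h were those of Prps2, which makes the ribose donor of nucleotides (-1.24 ± 0.04), and Mthfd2, a mitochondrial folate enzyme (-0.96 ± 0.04). Mthfd2 was lower in EMM at P10 (-1.08 ± 0.10) and P20 (-0.76 ± 0.10), where 2 and 0 genes of the list were higher and 4 and 3 lower, or 6 lower at each passage by DESeq2. In 2i/LIF the split was 2 higher to 8 lower at P10, led by Odc1, the first enzyme of polyamine synthesis (-1.63 ± 0.15), and 2 to 4 at P20. Of 18 cell cycle targets, 1 was higher and 7 lower at 3 h, 2 higher and 11 lower at 9 h, and 0 higher and 11 lower at 24 h (median -0.24). Ccnd1, the gene of cyclin D1, averaged 4499 normalized counts in Serum/LIF and 2304 at 24 h (-0.97 ± 0.05). In the passages Ccnd1 averaged 2307 in Serum/LIF and 134 in EMM at P10 (-4.12 ± 0.11), and 2109 and 644 at P20 (-1.71 ± 0.09). It was higher in 2i/LIF at both (0.88 ± 0.08 and 1.03 ± 0.08). As a list, 3 cell cycle targets were higher and 2 lower in EMM at P10, 2 and 6 in EMM at P20, 2 and 7 in 2i/LIF at P10, and 7 and 3 in 2i/LIF at P20. By DESeq2 the count in EMM at P10 was 2 higher and 5 lower, the other way round.

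The glycolysis list has 15 genes and 16 entries, since Aldoa has 2, and its share called was below that of all genes at 3 h (35.4%). Of these 2 were higher and 2 lower at 3 h, 6 higher and 2 lower at 9 h, and 3 higher and 7 lower at 24 h, with Ldha, lactate dehydrogenase A, at -0.73 ± 0.04 and Gpi1 at 0.40 ± 0.05. In EMM the split was 4 higher to 2 lower at P10, with Hk2, a hexokinase, at 0.96 ± 0.17, and 5 to 0 at P20. In 2i/LIF it was 3 to 8 and 1 to 8, and Slc2a1, the glucose transporter GLUT1, was lower at both (-1.65 ± 0.13 and -1.53 ± 0.13). Of genes known to be repressed by Myc, 13 tested in the time course, 2 were higher and 7 lower at 3 h, 4 and 5 at 9 h, and 3 and 3 at 24 h. Ndrg1, a stress and differentiation gene, was higher at 24 h (1.07 ± 0.07), and Cdkn1c, which encodes the cell cycle inhibitor p57, was lower (-1.68 ± 0.05). Of 14 tested in the passages, 3 were higher and 6 lower in EMM at P10, 4 and 5 at P20, and 3 and 7, then 2 and 7, in 2i/LIF. Txnip, a thioredoxin inhibitor and a textbook target of MondoA as well as of Myc, averaged 2646 in Serum/LIF and 40.5 in EMM at P10 (-6.15 ± 0.20), and 3223 and 23.6 at P20 (-7.11 ± 0.20). Cdkn1a, which encodes p21, was higher in 2i/LIF at P10 (2.54 ± 0.09) and P20 (1.53 ± 0.08).

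**Figure D5:**
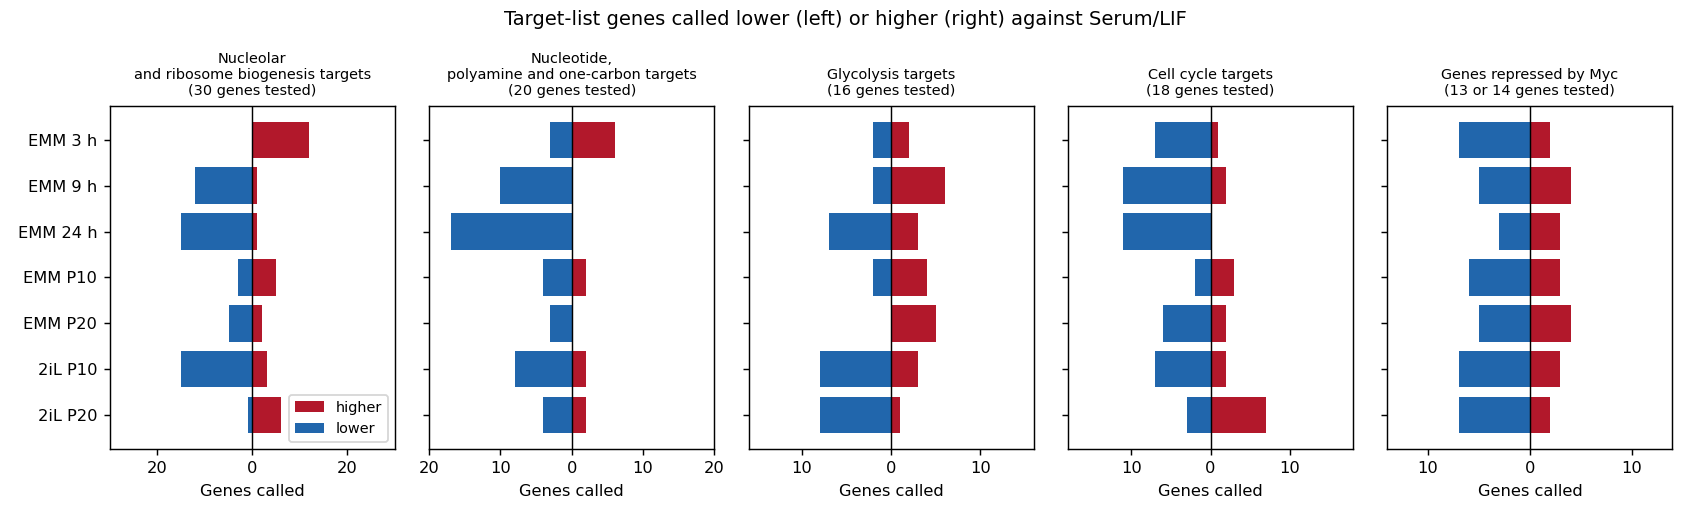
Number of genes of 5 target lists called lower (blue, left) or higher (red, right) than in Serum/LIF (x axis) in 7 comparisons (y axis). The nucleolar list goes from 12 higher and 0 lower at 3 h to 1 higher and 15 lower at 24 h of EMM.

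Likeness of pattern was the smaller of 2 Pearson correlations, over the 12 time-course and the 18 passage libraries, among 14652 genes. It is a description, since the libraries share groups and a gene that differs between media will resemble others that do. The genes most like Mycn were Uri1 (0.933), Cd276 (0.925) and Grb7 (0.925), and those named as most like Myc were Pmaip1 (0.922) and Mkrn1 (0.920). For Mnt they were Wdr81 (0.957), Ubn1 (0.937) and Pip4p1 (0.903), for Mycl Smarcd2 (0.935), Unc119 (0.917) and Cdk18 (0.908), and for Mxd1 Btg1 (0.911), Rtel1 (0.909) and Epb41l1 (0.908). No gene passed 0.9 for Max, Mxi1, Mxd3 or Mxd4. No member was among the 3 genes most like another.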

How the data were processed

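Total RNA was depleted of ribosomal RNA and sequenced. The authors deposited raw counts per gene for the 12 time-course libraries (STAR and featureCounts per the labels, genome mm10) and estimated counts for the 18 passage libraries (STAR and Salmon per the labels), which were rounded here (of all values, zeros included, 9.98% were not exactly whole and 5.49% by more than 0.01). The study's methods name HTSeq without separating the experiments. Genes low in counts were removed with filterByExpr, which left 16049 and 16054 genes, libraries were scaled by TMM, and all groups of an experiment were fitted together with edgeR 4.0.16 (quasi-likelihood test, R 4.3.3). P-values were adjusted by Benjamini-Hochberg over all genes tested, and calls were made below 0.01. The SE is the size of the log2 fold change divided by the square root of F. Alternatives were DESeq2 1.42.0, other scalings, filters and thresholds, fits of the compared groups alone, a replicate block and leaving out each library. The test was checked on simulated data. The 3 libraries of a group came from independent experiments per the study's methods, and every pair differed beyond counting noise, with a chi-square per degree of freedom of 2.09 or more.

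The replicate numbers were taken to pair libraries where all of 3 or more same-numbered pairs deviated together (correlation above 0.1). This held between P10 and P20 in 2i/LIF alone (0.134 to 0.299), where the blocked value is given for Myc. The block changed no other call of a member in that comparison.

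The members and the gene lists were chosen with earlier results of these data known. All members and the extended network are named. Of other lists, up to 2 of the largest rises and falls past the threshold are named in the comparisons of 24 h, P10 and P20 with Serum/LIF, and a named gene may be followed elsewhere. For genes of like pattern, the 3 highest are named for Myc, Mycn and members above 0.9, except 1 gene that is not reported here. Exon lengths came from GENCODE M21 (GRCm38). No protein sequences were used here.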

Additional observations from a re-analysis of the deposited data

Results flagged for a closer look

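The effect of a medium against Serum/LIF differed between passages for 8 values, each by the test of the difference itself (edgeR quasi-likelihood test, adjusted p below 0.01, 3 libraries per group). Of all genes tested, 15.0% were called for the difference in EMM and 20.1% for that in 2i/LIF. For EMM, the effect at P20 minus that at P10 was -1.004 on the log2 scale for Myc, 2.28 for Mycn, 0.64 for Mycl and 0.39 for Mnt. The Myc effect went from 0.97 to -0.03 and the Mycn effect from -2.44 to -0.16. For 2i/LIF, the difference was -1.15 for Mxd1, -0.91 for Mxi1, -2.14 for Mxd4 and -0.37 for Mnt. These do not stand equally firm: on leaving out 1 library the call was lost in 10 of 12 fits for Mycl, in 9 of 12 for Mnt in EMM and in 9 of 12 for Mnt in 2i/LIF, and with no filter for Mnt in EMM (adjusted p = 0.0193) and in 2i/LIF (adjusted p = 0.179). Mxd1 and Mxd4 in 2i/LIF were lower at P20 than at P10 while in Serum/LIF their changes between passages were not called. With the 2i/LIF libraries fitted alone, that change of Mxd1 was not called (adjusted p = 0.0147). Each difference rests on both the medium and its Serum/LIF control, and P10 and P20 Serum/LIF libraries also differed in the fibroblast and trophectoderm markers, whose part was not tested. Some libraries stood apart from the others of their group in a chi-square over genes, although no formal test for a deviating sample was made in groups of 3. In 2i/LIF, replicate 1 gave 57.5 and 49.5 per degree of freedom against the others at P20, which gave 14.6 between them, and 20.4 and 29.9 at P10, against 6.51. At 24 h of EMM replicate 1 gave 14.1 and 12.5, against 2.89, and at 9 h replicate 3 gave 10.5 and 11.5, against 2.49. The 2i/LIF differences of Mxd1, Mxi1 and Mxd4 were called in all 12 fits that each leave out 1 library, those without replicate 1 of 2i/LIF at either passage included.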

How the results depend on the processing

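Over 2025 recomputed values for the 9 members in 16 comparisons, 49 changed direction, and none of these belonged to a member called with all libraries. The depth was lowest in the passage experiment, where changes of Mxd3 and Mxd4 had an SE of 0.16 to 0.22 on the log2 scale for a single comparison, and values as large as 0.47 did not pass.

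The number of members called fell when the change also had to exceed 1 on the log2 scale, from 8 to 3 at 3 h, 7 to 1 at 9 h, 7 to 2 at 24 h, 3 to 0 for 9 h against 3 h and 1 to 0 for 24 h against 9 h. In the passages it went from 8 to 3 (EMM, P10), 4 to 1 (EMM, P20), 5 to 3 and 5 to 3 (2i/LIF, P10 and P20), 8 to 3 (EMM against 2i/LIF, P20), 3 to 0, 2 to 1 and 5 to 2 (P20 against P10 in Serum/LIF, EMM and 2i/LIF), and 4 to 2 for either difference between passages. At an adjusted p below 0.05 it rose from 3 to 5 (9 h against 3 h), 1 to 3 (24 h against 9 h) and 2 to 5 (P20 against P10, EMM). With no filter 2 were called for 24 h against 9 h, where 1 was. Also with no filter, 7 passage calls were lost, as given for 3 of Mnt elsewhere and for Max in EMM at P10 (adjusted p = 0.133), Max in 2i/LIF at P20 (0.0281), Mxd4 for EMM against 2i/LIF at P10 (0.0251) and Mnt for P20 against P10 in 2i/LIF (0.0776). Passage values gained were Mxi1 for P20 against P10 in EMM (5.79e-03), Myc for P20 against P10 in 2i/LIF (2.95e-03) and the 2i/LIF difference of Mycn (8.85e-03). With the compared groups fitted alone, 4 rather than 2 were called for P20 against P10 in EMM and 1 rather than 5 in 2i/LIF. That setting also lost the calls of Max in EMM at P10 (adjusted p = 0.0132), Mnt (0.0177) and Max (0.0179) in 2i/LIF at P10 and P20, Mxd4 for EMM against 2i/LIF at P10 (0.0446) and the 2i/LIF difference of Mnt (0.0239). Fewer libraries then estimate the spread.

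By the rule given above, the replicate numbers paired the libraries in 1 comparison only, P20 against P10 in 2i/LIF. Deviations of same-numbered libraries correlated above 0.1 in 5 of 15 time-course pairs by the titles, 5 of 12 by the descriptions, which number the EMM libraries differently, and 3 of 27 passage pairs, which are the 3 of that comparison. For 24 h of EMM against Serum/LIF, the pairs by the descriptions gave 0.280 and 0.152 but were too few for the rule. With the replicate number as a block, by either numbering, 2 rather than 1 members were called for 24 h against 9 h, Mnt being the one gained. By the titles, Myc was gained for P20 against P10 in 2i/LIF (adjusted p = 8.48e-03), and 4 calls were lost: Mxd4 for EMM against 2i/LIF at P10 (0.0110), Mycn for P20 against P10 in Serum/LIF (0.0127), and the differences between passages of Mycl in EMM (0.0150) and Mnt in 2i/LIF (0.0117). The block changed no other call of a member.

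Leaving out 1 library gave 0 to 2 members called for 9 h against 3 h, 1 to 2 for 24 h against 9 h, 1 to 2 for P20 against P10 in Serum/LIF, and 2 to 3 for the difference between passages in EMM, against 3, 1, 3 and 4 with all libraries. Members whose direction turned when 1 library was left out were not called, and their log2 values ranged from -0.035 to 0.028 (Max, 24 h against 9 h), -0.037 to 0.020 (Max, 3 h), -0.20 to 0.077 (Mxd3, 24 h against 9 h), -0.19 to 0.090 (Mxd3, 24 h), -0.066 to 0.083 (Mxd3, 9 h), -0.14 to 0.13 (Mxd3, P20 against P10, EMM), -0.032 to 0.26 (Mxd4, EMM difference between passages), -0.25 to 0.049 (Mxi1, EMM against 2i/LIF, P20), -0.28 to 0.033 (Myc, 2i/LIF difference), -0.0034 to 0.069 (Myc, 24 h against 9 h), -0.072 to 0.0037 (Myc, EMM, P20), -0.056 to 0.092 (Mycl, 2i/LIF, P10), -0.078 to 0.016 (Mycl, 9 h against 3 h), -0.028 to 0.10 (Mycl, P20 against P10, EMM) and -0.16 to 0.060 (Mycn, P20 against P10, 2i/LIF).

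Other changes of direction were of values near 0, none called. Mxd3 at 9 h was 0.0059 with DESeq2 size factors, 0.025 with no filter, 0.0060 by DESeq2 and 0.013 with the compared groups alone. Max at 3 h was 0.014 with no filter and 0.0019 with the compared groups alone. Mycl at 9 h against 3 h was 0.0014 with library totals. Mycl in 2i/LIF at P10 was -0.0016 with DESeq2 size factors, -0.011 with library totals, -0.032 with no filter, -0.042 when each library needed 10 counts or more and -0.010 with the compared groups alone. Max was -0.021 (EMM, P20) and 0.034 (P20 against P10, EMM) with library totals, 0.00033 in the latter with no filter, and -0.0072 (2i/LIF, P10) with at least 10 counts. Mxd3 for P20 against P10 in EMM was -9.02e-06 with DESeq2 size factors and -0.0072 with the compared groups alone, and Mycn for P20 against P10 in 2i/LIF was 0.0016 with no filter. The cause was not tested. Library totals left the calls of the role and target lists within 1.5 times in all 16 comparisons. Among members, that scaling lost the calls of Mnt at 9 h against 3 h (adjusted p = 0.0104) and Mycn for P20 against P10 in Serum/LIF (0.0287). It gained Mxi1 at 9 h against 3 h (adjusted p = 2.58e-03), besides the changes of Max given above. Shares and ratios within a library cannot move with its scaling.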
